A study of Sus scrofa with 12 samples.

Results

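Genes that carry, bind, make and break down retinoids were examined in the endometrium of sows fed different levels of dietary fiber (DF) and N-carbamylglutamate (NCG, an analog of the metabolite that switches on arginine synthesis). Members were taken by gene name from a fixed list of 9 genes, namely the retinol carrier RBP4, its receptor STRA6, the retinoic acid binding proteins CRABP1 and CRABP2, the retinal dehydrogenases ALDH1A1, ALDH1A2 and ALDH1A3, and the retinoic acid hydroxylases CYP26A1 and CYP26B1. Of these, 8 were matched among the 20674 genes of the expression table, and 7 passed the filter on low counts. CYP26A1 did not pass it, and CYP26B1 was not analysed here.

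Endometrial RNA came from 12 libraries, 3 in each of 4 dietary groups. The low-fiber (LF) diet held 3.73% crude fiber, without NCG in L − N (the basal control) and with 0.05% NCG in L + N. The high-fiber (HF) diet held 7.46% crude fiber, again without NCG in H − N and with 0.05% NCG in H + N. All sows were Landrace × Yorkshire crosses of similar parity, were fed from breeding over the 114 days of gestation, and received the same vitamin and mineral premix. The HF diets also held less corn, and they held soybean bran, beet pulp and soybean oil, which the LF diets lacked. Differences between HF and LF groups therefore compare whole diets, and the part of these ingredients was not tested. The labels do not say which sow gave which library, so the p-values measure only the spread between these samples. In bulk tissue, fewer cells of a type and less RNA per cell cannot be told apart.

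Retinol travels in blood bound to RBP4 and enters cells through STRA6. Inside the cell it is oxidized to retinal and then, by the ALDH1A enzymes, to retinoic acid, which acts on nuclear receptors of the RAR and RXR families. CRABP1 and CRABP2 bind retinoic acid in the cytoplasm, and CYP26 enzymes destroy it. The uterus of the pregnant pig is known to secrete retinol-binding protein toward the conceptus, and retinoic acid regulates the growth and differentiation of the endometrium.

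Total counts were 14369781 to 19309724 per library, with a median of 16224088. Epithelial EPCAM was measured at 187 to 374 CPM (counts scaled to library size) and stromal VIM at 862 to 3725 CPM. Of the genes listed for trophoblast and placenta, CYP19A1 and CDX2 had 0 counts in all 12 libraries and GCM1 and HAND1 at most 4. Whether placental tissue was present was not tested by these counts. The symbol PAG1 in the table belongs to a phosphoprotein membrane anchor and therefore marks no placental tissue. PEG10, which was on the same placental list, was measured at 8.06 to 35.4 CPM. Its log2 fold change for H + N against L − N was 1.33 in the edgeR test (adjusted p = 0.0702), and it was not called. L − N replicate 1 stood apart from its group. Its 5 smooth muscle markers summed to 2086 CPM, against 558.5 and 905.1 CPM in the other L − N libraries, and its 6 leukocyte markers to 485 CPM, against 1476 and 1440 CPM. H − N replicate 3 and H + N replicate 3 had the highest stromal marker sums, 31880 and 35060 CPM, against 16500 to 29030 CPM elsewhere. Main results that rest on these libraries are given with and without them.

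Per length of transcript, ALDH1A1 was by far the most abundant member. Its FPKM (fragments scaled to transcript length and library size, as deposited) had a median of 730.1 over the 12 libraries and a range of 147.8 to 1259. The median FPKM was 67.9 for ALDH1A2, 52.4 for CRABP1, 50.6 for CRABP2 and 44.2 for ALDH1A3, and the ranges of these 4 genes overlapped, so that their order does not go beyond the spread. STRA6 followed with 17.7 FPKM, RBP4 with 2.98 FPKM and CYP26A1 with 0.0697 FPKM. This order depends on the deposited gene lengths, which were 5558 bases for RBP4, 529 for CRABP1 and 584 for CRABP2 and were not checked. In CPM, without length, the medians of these 3 genes were 16.7, 26.95 and 29.1.

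**Figure D1:**
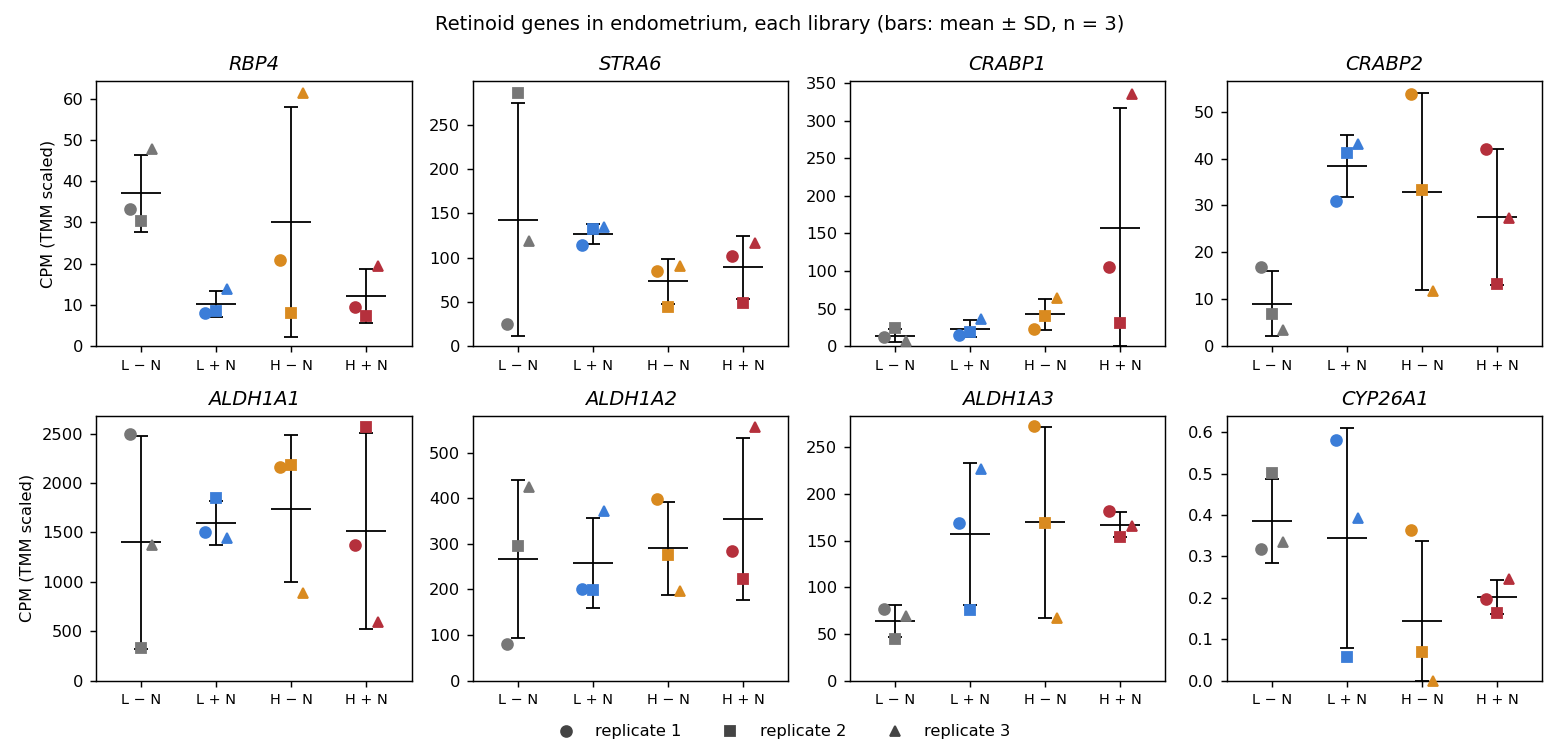
CPM of the 8 genes in each library, with 1 panel per gene, a linear axis from 0, the 4 dietary groups on the x axis and the replicates as symbols; horizontal marks and bars are the mean ± SD of 3 libraries, and a lower bar is cut at 0 where the SD exceeds the mean. CRABP1 reaches 336.4 CPM in 1 H + N library, the L − N libraries are the lowest for CRABP2 on average, and RBP4 is low in all 6 libraries with NCG.

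CRABP1 (chromosome 7, 47602316 to 47608865, minus strand, Sscrofa11.1), which binds retinoic acid in the cytoplasm, was the member with the largest difference between groups. It was measured at 11.7, 23.6 and 6.72 CPM in L − N and at 14.7, 18.9 and 36.4 CPM in L + N. In H − N it was measured at 23.1, 39.9 and 63.9 CPM, and in H + N at 105.8, 30.3 and 336.4 CPM. All 3 H + N libraries lay above all 3 L − N libraries, whereas H + N replicate 2 lay within the range of H − N. Per length, mean CRABP1 was 25.3 ± 15.4 FPKM in the L − N group, whereas H + N had 289.7 ± 285.8 FPKM (SD, n = 3).

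Across the 4 groups, CRABP1 was the only 1 of the 7 tested members to pass the edgeR quasi-likelihood test (adjusted p = 0.0443), where 6.96% of all 15351 tested genes passed. Compared with L − N, H + N increased CRABP1 by 3.49 on the log2 scale (SE 0.807, 95% confidence interval 1.72 to 5.26, adjusted p = 0.0300). Here CRABP1 was again the only 1 of 7 members called, at an adjusted p under 0.05 and an absolute log2 fold change above 1, against 3.58% of all genes (2.29% higher and 1.28% lower). At an unadjusted p under 0.05, 4 members (CRABP1, CRABP2, RBP4 and ALDH1A3) and 27.5% of all genes differed. The CRABP1 call was lost when L − N replicate 3 was left out (adjusted p = 0.115), and likewise for H + N replicate 1 (adjusted p = 0.0681) and for H + N replicate 3 (log2 fold change 2.28, adjusted p = 0.0811). With only these 2 groups in the fit it was lost as well (log2 fold change 3.45, adjusted p = 0.0951), and without L − N replicate 1 it was kept. The four-group result held in 2 of 12 fits that each left out a library, namely those without H − N replicate 3 or H + N replicate 2.

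Neither addition alone moved CRABP1 past the threshold. The log2 fold change against L − N was 1.59 for H − N (adjusted p = 0.225) and 0.73 for L + N (adjusted p = 0.564). These comparisons share the L − N libraries. On average over NCG, HF exceeded LF by 2.17 (95% confidence interval 0.98 to 3.36) at an adjusted p of 0.0921, and 0 of 7 members were called in that contrast, in which edgeR called 0.0261% of all genes. Without H + N replicate 2, CRABP1 passed it (adjusted p = 0.0424), whereas the difference was 1.57 (adjusted p = 0.181) when H + N replicate 3 was left out. DESeq2, run on the same libraries, called CRABP1 for HF against LF (adjusted p = 0.00635). The share of all genes that DESeq2 called is not given here, for this or any other comparison. For HF against LF, 2 members (CRABP1 and ALDH1A3) and 19.5% of all genes had an unadjusted edgeR p under 0.05. On average over fiber, CRABP1 was higher with NCG than without by 1.31 (95% confidence interval 0.15 to 2.48, adjusted p = 0.161), which was not called. Without H + N replicate 3 this was 0.71. In that contrast 2 members (CRABP1 and RBP4) and 23.6% of all genes had an unadjusted edgeR p under 0.05. The difference between the NCG effects on the HF and LF diets was 1.17 with an interval of -1.13 to 3.47, and it was -0.04 without H + N replicate 3. For H − N against L − N, leaving out H − N replicate 3 gave 1.16 (adjusted p = 0.444). H − N replicate 3 and H + N replicate 3, the highest libraries of their groups for CRABP1, were also those with the highest stromal marker sums. These sums rested largely on COL1A1 and COL1A2, and their part in the result was not tested.

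**Figure D2:**
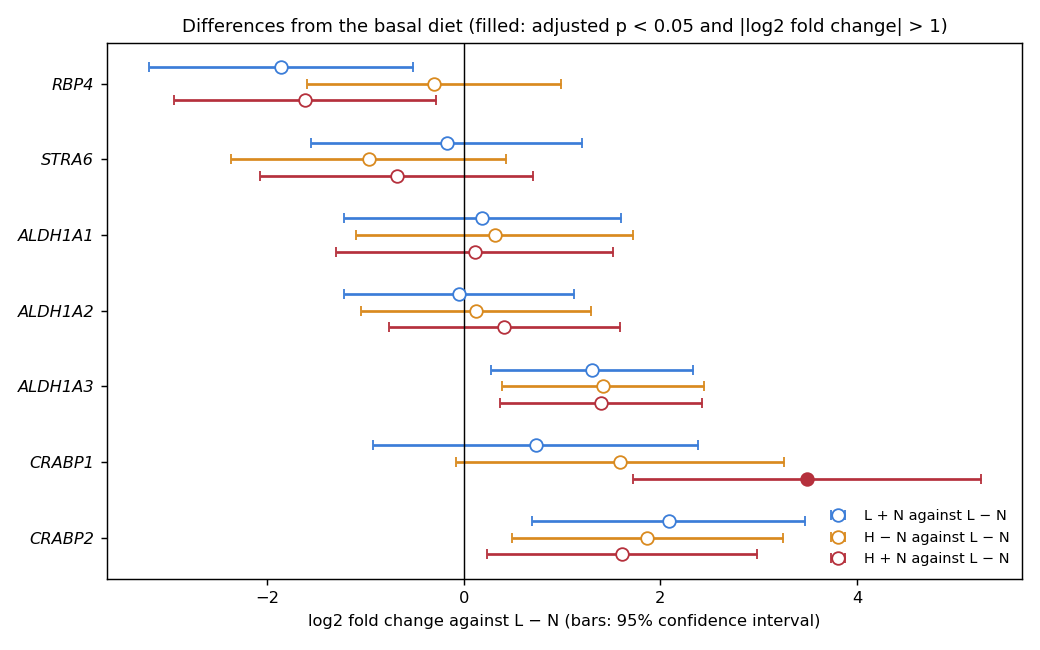
Log2 fold change of the 7 tested genes against L − N (x axis) for L + N, H − N and H + N, with bars for the 95% confidence interval; filled points passed the adjusted p and fold change thresholds. The single filled point is CRABP1 in H + N at 3.49, the intervals of CRABP2 and ALDH1A3 lie above 0 in all 3 comparisons, and those of ALDH1A1 and ALDH1A2 span 0 in all 3.

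CRABP2 (chromosome 4, 93388198 to 93393861, plus strand) delivers retinoic acid to its nuclear receptors. It was measured at 16.8, 6.83 and 3.42 CPM in L − N and at 30.9, 41.3 and 43.0 CPM in L + N. The H − N libraries gave 53.8, 33.3 and 11.7 CPM, and the H + N libraries 42.1, 13.2 and 27.3 CPM. Every L + N library lay above every L − N library, while both HF groups overlapped L − N through L − N replicate 1.

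The log2 fold change of CRABP2 against L − N was 2.09 in L + N (SE 0.633, adjusted p = 0.0600), 1.87 in H − N (SE 0.629, adjusted p = 0.102) and 1.61 in H + N (SE 0.627, adjusted p = 0.125), so that none was called. Without L − N replicate 1, the library rich in smooth muscle markers, all 3 passed, with log2 fold changes of 2.90, 2.68 and 2.42 and adjusted p-values of 0.0216, 0.0243 and 0.0397. The L + N difference also passed without H − N replicate 3 (adjusted p = 0.0371). DESeq2 called all 3 (adjusted p = 0.0058, 0.0205 and 0.0445). In the interaction of DF and NCG, the effect of NCG on CRABP2 was lower by 2.35 log2 units on the HF than on the LF diet (95% confidence interval -4.25 to -0.44, unadjusted p = 0.0200). At an adjusted p of 0.320 it was not called, nor was any of the 7 members, and in this contrast edgeR called 0.0% of all genes. The interaction had 1967 genes (12.8%) and 1 member, CRABP2, at an unadjusted p under 0.05, and DESeq2 called 0 members in it. For CRABP2 the interaction was -3.16 without L − N replicate 1 and -1.80 without H − N replicate 1, the extremes when single libraries were left out.

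The order of the binding proteins was not the same in all libraries. CRABP1 exceeded CRABP2 in FPKM in 2 of 3 L − N libraries, in 0 of 3 in L + N, in 2 of 3 in H − N and in 3 of 3 in H + N. The ratio of CRABP1 to CRABP2 was 0.504 to 0.935 in L + N and 2.53 to 13.6 in H + N, ranges that do not overlap. In L − N it was 0.765 to 3.82 and in H − N 0.473 to 6.02, overlapping both. The ratio was not tested, and neither gene was called in H + N against L + N.

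RBP4 (chromosome 14, 105037360 to 105044552, minus strand), the retinol carrier, was the member called for NCG. It was measured at 33.2, 30.2 and 47.7 CPM in L − N and at 8.10, 8.62 and 13.9 CPM in L + N. In H − N it ranged widely, at 20.8, 7.91 and 61.3 CPM, and in H + N it was 9.43, 7.39 and 19.5 CPM. No library with NCG exceeded 19.5 CPM, and of the 6 without NCG only H − N replicate 2 lay below that.

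NCG supplementation decreased RBP4 by 1.59 on the log2 scale (SE 0.431, 95% confidence interval -2.53 to -0.64, adjusted p = 0.0488). RBP4 was the only 1 of 7 members called for +NCG against −NCG, where 1.8% of all genes were called and 0.13% were called lower. The result sat at the edge of the threshold. It held without H − N replicate 2 (adjusted p = 0.0182) and without H + N replicate 3 (adjusted p = 0.0378), and each of the other 10 libraries, when left out, moved the adjusted p to between 0.0584 and 0.117. Without H − N replicate 3, the highest library, the log2 fold change was -1.06 (adjusted p = 0.0761).

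On the LF diet, L + N was below L − N in RBP4 by 1.86 log2 units, with no overlap between the groups (SE 0.614, adjusted p = 0.0790). It passed without H − N replicate 2 (adjusted p = 0.0372) or H − N replicate 3 (adjusted p = 0.0261), neither of which belongs to the groups compared, and with only the 2 groups in the fit (adjusted p = 0.0145). H + N was lower than L − N by 1.61 log2 units, again with no overlap (adjusted p = 0.114, and 0.0453 without H − N replicate 3). On the HF diet, H + N against H − N gave -1.31 (95% confidence interval -2.64 to 0.02, adjusted p = 0.577). In H + N against H − N, edgeR called 0 members and 0.0% of all genes, with 1 member (CRABP1, 0.69 on the log2 scale without H + N replicate 3) and 1331 genes (8.67%) at an unadjusted p under 0.05, and DESeq2 called 0 members. The interaction term for RBP4 was 0.55 with an interval of -1.30 to 2.40, so that a difference between the NCG effects on the 2 diets was not shown.

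In L − N, L + N and H + N, the 5 gland secretion markers summed to 1260 to 2231, 677.4 to 823.9 and 608.9 to 1095 CPM. In H − N they reached 2173 CPM in replicate 3, the library with the highest RBP4, against 938.2 and 882.8 CPM in the others. That difference rested largely on SPP1, which ran from 70.7 to 1305 CPM in H − N. There SLPI ran from 687.4 to 786.3 CPM, ACP5 from 63.0 to 96.5 CPM, LIF from 4.92 to 17.6 CPM and UPTI from 0 to 1.10 CPM. All 4 cell division markers were called higher for +NCG against −NCG, and they summed to 237.0 to 359.4 CPM in the libraries with NCG and to 41.6 to 191.0 CPM in those without. The part of gland content or cell division in the RBP4 result was not tested. RBP4 lies wholly within the span of PDE6C on the opposite strand, which was counted at 3.61 to 10.6 CPM. The study's methods describe strand-specific libraries, whereas the strand setting of the counting is not given in the sources used here, so that reads of the pair may have been shared.

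**Figure D3:**
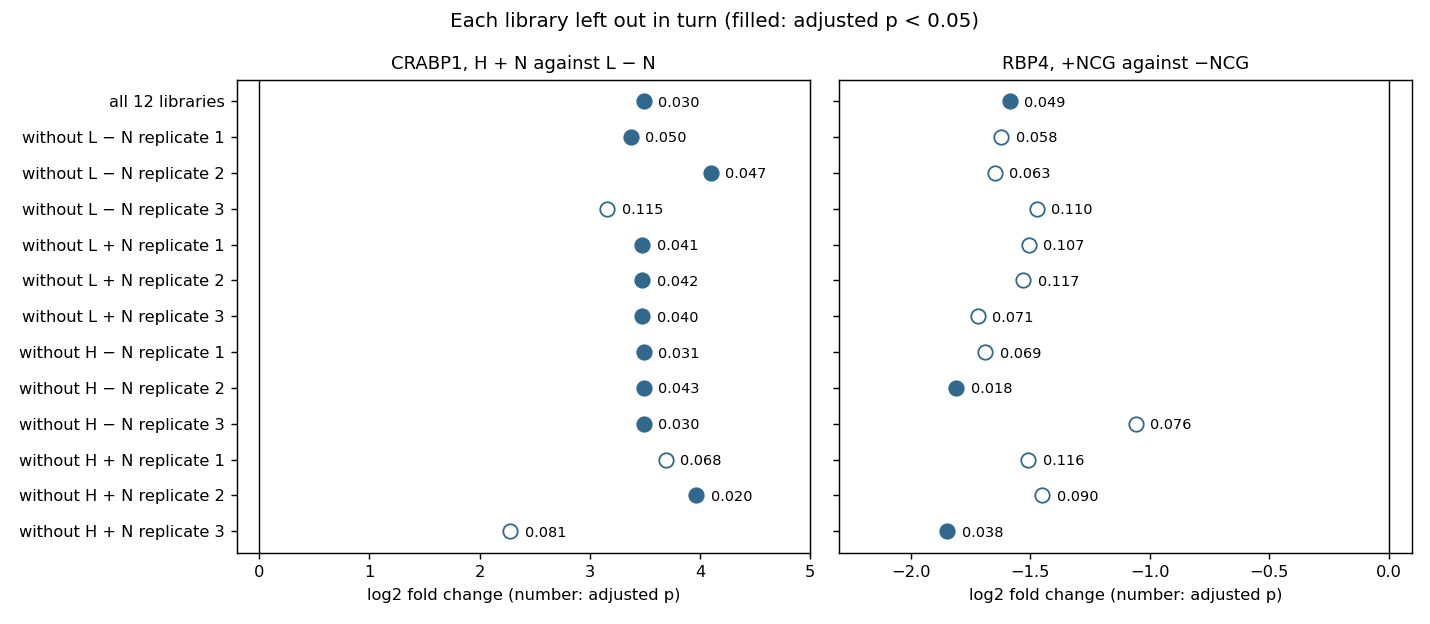
Log2 fold change (x axis) of CRABP1 for H + N against L − N (left) and RBP4 for +NCG against −NCG (right), for all 12 libraries and with each library left out in turn (y axis), with the adjusted p beside each point; filled points have an adjusted p under 0.05. CRABP1 stays past the threshold in 9 of 12 such fits and RBP4 in 2 of 12, and no point crosses 0.

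STRA6 (chromosome 7, 59317930 to 59347274, plus strand), the cell surface receptor for RBP4, varied more within L − N than between groups. Its CPM was 25.0, 286.0 and 118.3 in L − N, and 114.2, 132.3 and 134.7 in L + N. It was 85.3, 43.6 and 90.4 CPM in H − N, and 102.0, 49.1 and 116.6 CPM in H + N. L − N replicates 1 and 2 were the lowest and the highest of all 12 libraries.

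No STRA6 difference was called by edgeR with all libraries. The log2 fold change against L − N was -0.97 in H − N (95% confidence interval -2.36 to 0.43), -0.68 in H + N (-2.07 to 0.71) and -0.17 in L + N (-1.55 to 1.21). These turned to 0.03, 0.32 and 0.83 without L − N replicate 2. Without L − N replicate 1, H − N against L − N was -1.47 and passed (adjusted p = 0.0468).

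Retinal dehydrogenases make retinoic acid from retinal. ALDH1A1 (chromosome 1, 226163347 to 226217342, minus strand) was measured at 2492, 332.5 and 1378 CPM in L − N and at 1500, 1853 and 1439 CPM in L + N. In H − N it was 2160, 2179 and 883 CPM, and in H + N 1371, 2570 and 598.5 CPM. The 4 groups overlapped throughout, and the log2 fold changes against L − N were 0.19, 0.31 and 0.11 for L + N, H − N and H + N. The 95% confidence interval was wide, from -1.30 to 1.52 for H + N. The sign of all 3 turned without L − N replicate 2, to -0.28, -0.15 and -0.35, and that of H + N also without H + N replicate 2 (-0.52).

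ALDH1A2 (chromosome 1, 113932722 to 114037059, plus strand), the enzyme that is typical of stroma and embryonic mesenchyme, gave 80.3, 294.4 and 424.5 CPM in L − N. The L + N libraries gave 202.0, 199.3 and 372.8 CPM, the H − N libraries 399.3, 274.8 and 196.8 CPM, and the H + N libraries 284.2, 223.2 and 557.4 CPM. The groups overlapped, and the log2 fold change against L − N was -0.05 for L + N, 0.12 for H − N and 0.41 for H + N (95% confidence interval -0.76 to 1.58). Leaving out L − N replicate 1 turned the HF differences to -0.31 and -0.02, leaving out H − N replicate 1 turned the first to -0.18, and leaving out H + N replicate 3 turned the second to -0.07. The L + N value turned to 0.03 and 0.46 when L − N replicates 2 and 3 were left out, and to 0.12 and 0.11 when L + N replicates 1 and 2 were.

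ALDH1A3 (chromosome 1, 139451080 to 139491514, plus strand), the remaining retinal dehydrogenase, was lowest on average in the basal group. It was measured at 77.0, 44.3 and 69.5 CPM in L − N and at 168.8, 75.9 and 226.6 CPM in L + N. The H − N libraries gave 272.5, 168.6 and 67.5 CPM, and the H + N libraries 181.3, 154.3 and 166.2 CPM. Only in H + N did all libraries exceed those of L − N, and 2 of the 9 libraries outside L − N lay within its range.

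The log2 fold change of ALDH1A3 against L − N was 1.30 in L + N (SE 0.467), 1.42 in H − N (SE 0.468) and 1.40 in H + N (SE 0.468), with adjusted p-values of 0.0996, 0.0980 and 0.0822. None was called by edgeR, whereas DESeq2 called all 3 (adjusted p = 0.0305, 0.0222 and 0.0206). When H − N replicate 3 was left out, L + N and H + N passed (adjusted p = 0.0432 and 0.0391). The H − N difference was 1.795 in that fit and did not pass. The 3 diets were close to each other, with differences of -0.02 for H + N against H − N (95% confidence interval -1.02 to 0.98) and 0.09 for H + N against L + N (-0.91 to 1.09). ALDH1A3 overlaps the opposite-strand gene LOC106509041 over 536 bases, and that gene was counted at 0.897 to 11.2 CPM.

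In total, 0 of 7 members were called for L + N against L − N and 0 of 7 for H − N against L − N, where 3.99% and 2.91% of all genes were called. At an unadjusted p under 0.05, 3 members (ALDH1A3, CRABP2 and RBP4) and 27.8% of all genes differed in the first, and 2 members (ALDH1A3 and CRABP2) and 24.4% of all genes in the second. DESeq2 called these same 3 and 2 members, without a share of all genes to set beside them. Without L − N replicate 1, edgeR called CRABP2 in the first and CRABP2 and STRA6 in the second, and without H − N replicate 3 it called ALDH1A3, CRABP2 and RBP4 in the first. Groups did not overlap for 2 of 7 members in L + N against L − N, against 35.3% of all genes, for 0 of 7 in H − N against L − N, against 25.4%, and for 3 of 7 (ALDH1A3, CRABP1 and RBP4) in H + N against L − N, against 28.0%. In H + N against L + N, edgeR called 0 members and 0.0% of all genes, with 1 member (CRABP1, log2 fold change 2.76, adjusted p = 0.910, and 1.55 without H + N replicate 3) and 719 genes (4.68%) at an unadjusted p under 0.05, and DESeq2 called 0 members.

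**Figure D4:**
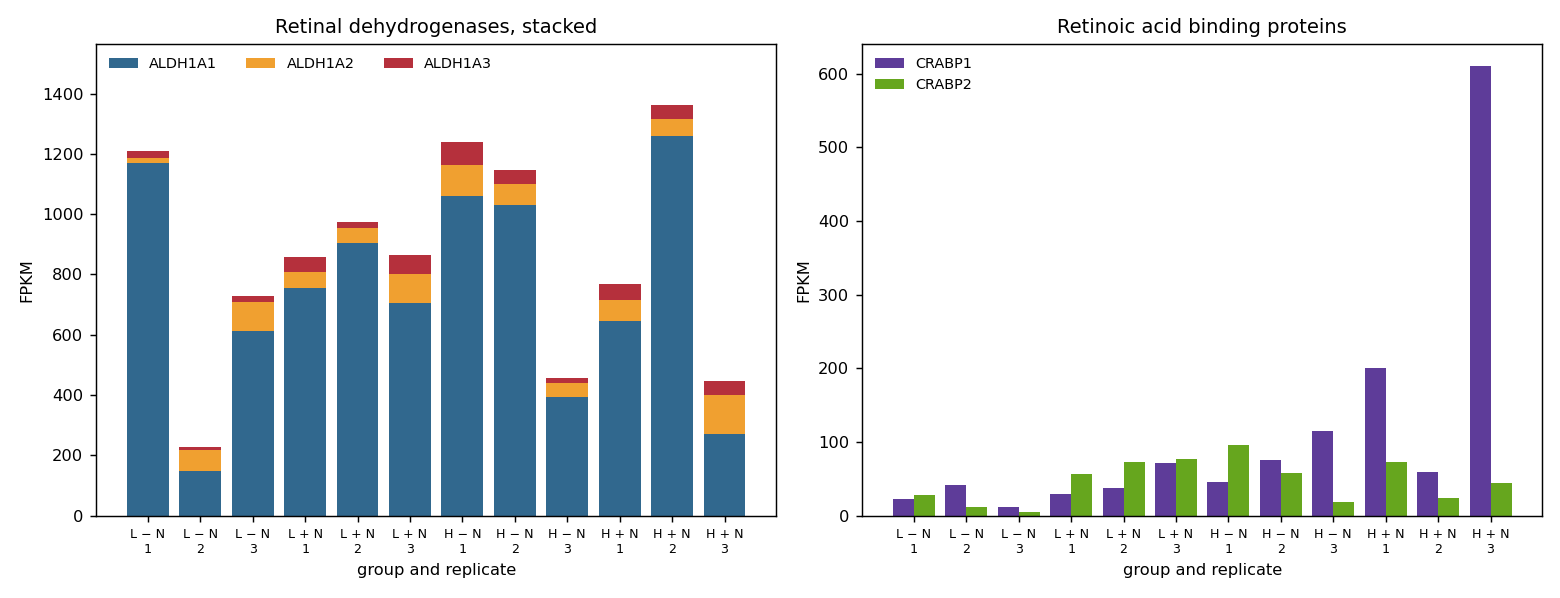
FPKM of the 3 retinal dehydrogenases stacked for each library (left) and of CRABP1 and CRABP2 side by side (right), with group and replicate on the x axis and linear axes from 0. ALDH1A1 makes up 60.7% to 96.6% of each stack, and CRABP1 exceeds CRABP2 in all 3 H + N and in none of the 3 L + N libraries.

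Among the retinal dehydrogenases, ALDH1A1 held 60.7% to 96.6% of the summed FPKM, ALDH1A2 1.62% to 29.96% and ALDH1A3 1.75% to 9.88%. The summed FPKM ran from 227.5 to 1209 in L − N, from 857.4 to 975.1 in L + N, from 457 to 1240 in H − N and from 445.8 to 1361 in H + N. L + N was the most even group, and the others each held a library with low ALDH1A1.

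Within groups, some members had their highest library in common. In 4 of 4 groups, the library with the highest CRABP1 had the highest STRA6 and the lowest ALDH1A1, and in 4 of 4 groups the library with the highest CRABP2 had the highest ALDH1A3. The lowest libraries did not always match, as in L − N, where CRABP1 was lowest in replicate 3 and STRA6 in replicate 1. These cases were picked out from all pairs of the tested members. With 3 libraries a group and libraries that differ in marker content, the matches are only a description of these samples. Over the 12 libraries, the genes whose log2 CPM followed CRABP1 most closely among 12405 compared were ZNF35 (Pearson r = 0.935), NUP160 (0.932) and NIP7 (0.925). For RBP4 they were CDV3 (r = 0.926), HECTD3 (0.920) and SLC41A1 (0.905). These points share group, depth and tissue content.

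CYP26A1 (chromosome 14, 104561394 to 104567099, plus strand), which breaks retinoic acid down, was barely detected. Its counts were 5, 8 and 5 in L − N, 12, 1 and 6 in L + N, 7, 1 and 0 in H − N, and 3, 3 and 4 in H + N. The highest value was 0.582 CPM. At these counts CYP26A1 was left out of the main test, and no fold change is given. A difference between the groups was neither shown nor excluded.

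Of 47 further retinoid genes listed by function, 42 were in the table and 29 were tested. In L + N against L − N, 1 of the 29 was called higher and 2 lower, where 3.32% and 0.671% of all genes were. The corresponding numbers were 1 and 3 for H − N against L − N, beside 0.892% and 2.01% of all genes, and 0 and 3 in H + N against L − N, beside 2.29% and 1.28%. The median log2 fold change of the 29 genes was -0.04, 0.00 and -0.08 in these comparisons, beside -0.02, 0.03 and 0.02 over all tested genes. None of the 29 was called by edgeR for HF against LF, for NCG, for the interaction, or between H + N and the groups with a single addition, where 8, 6, 6, 2 (against H − N) and 4 (against L + N) of the 29 had an unadjusted p under 0.05, beside 19.5%, 23.6%, 12.8%, 8.67% and 4.68% of all genes. DESeq2 called DHRS9 for HF against LF and BCO1 for the interaction.

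The called genes were RDH10, DHRS3, BCO1, RARRES1 and FABP5. RDH10, which oxidizes retinol to retinal and feeds the ALDH1A enzymes, was measured at 90.2, 218.6 and 221.6 CPM in L − N. It was 65.1, 75.0 and 57.6 CPM in L + N, 63.0, 55.3 and 58.5 CPM in H − N, and 57.2, 69.0 and 26.1 CPM in H + N, so that every L − N library exceeded all others. RDH10 fell by 1.42 in L + N (SE 0.363, adjusted p = 0.0338), by 1.58 in H − N (SE 0.365, adjusted p = 0.0354) and by 1.80 in H + N (SE 0.368, adjusted p = 0.0229) on the log2 scale against L − N. DHRS3, which reduces retinal back to retinol and so acts in the opposite direction, fell as well. Its CPM was 140.6, 169.5 and 154.2 in L − N, and 53.0 to 106.0 in the other 9 libraries. DHRS3 was lower by 1.19 in H − N (SE 0.212, adjusted p = 0.0194) and by 1.22 in H + N (SE 0.212, adjusted p = 0.0160), and in L + N its log2 fold change of -0.87 (adjusted p = 0.0272) was short of the fold threshold.

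BCO1, which cleaves carotene to retinal, was rare at 0.806 to 1.72 CPM in L − N. It was 2.74 to 3.35 CPM in L + N, 3.19 to 3.68 CPM in H − N and 1.84 to 2.83 CPM in H + N. It increased by 1.24 in L + N (adjusted p = 0.0394) and by 1.48 in H − N (adjusted p = 0.0336), and its log2 fold change in H + N was 1.01 (adjusted p = 0.0790). RARRES1, a gene known to be induced by retinoic acid, was measured at 170.1, 475.5 and 284.9 CPM in L − N and at 79.2 to 213.5 CPM elsewhere. It fell by 1.24 in L + N (adjusted p = 0.0480) and by 1.36 in H + N (adjusted p = 0.0406). RARRES1 was the single gene called among 8 tested genes listed as retinoic acid targets. FABP5, which can carry retinoic acid to PPARD instead of the RARs, fell by 1.03 in H − N (adjusted p = 0.0448), from 27.4 to 53.2 CPM in L − N to 14.2 to 26.0 CPM.

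**Figure D5:**
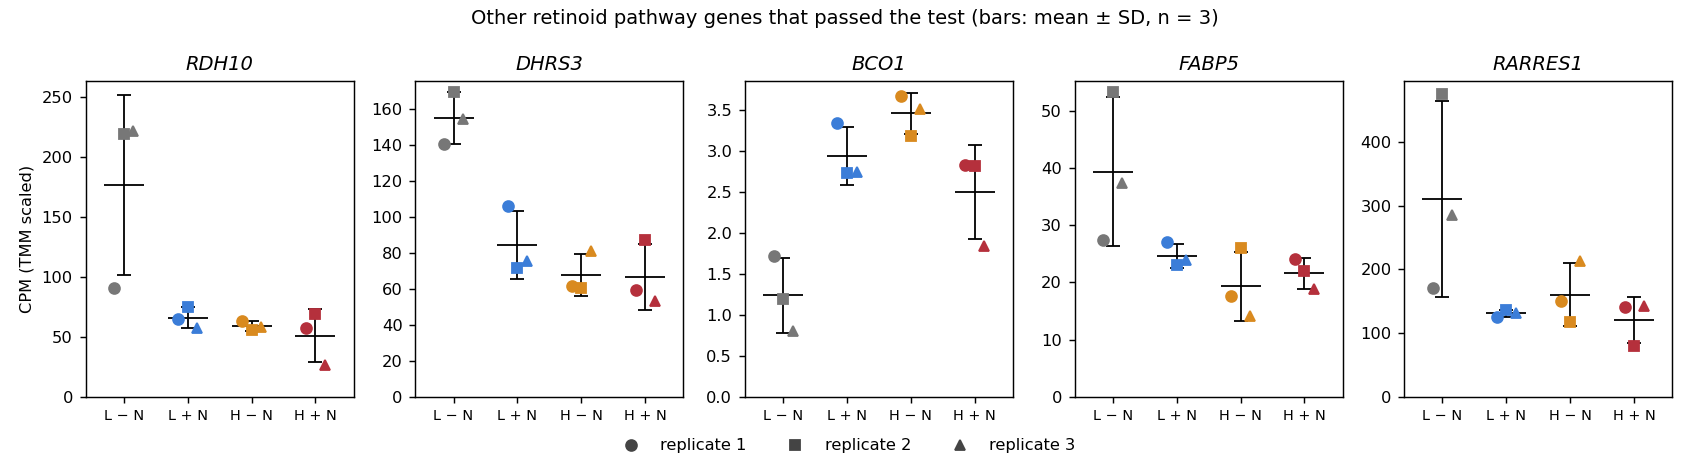
CPM of 5 further retinoid genes in each library, with 1 panel per gene, a linear axis from 0, the 4 dietary groups on the x axis, replicates as symbols, and the mean ± SD of 3 libraries as bars. RDH10 and DHRS3 are higher in each L − N library than in any other, and BCO1 is lower in each L − N library than in any other.

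These calls depended on single libraries and on the groups in the fit. With only the compared groups in the fit, RDH10 in L + N was the single call kept (adjusted p = 0.0445), and the others moved to adjusted p-values of 0.0542 to 0.153. RDH10 in H + N against L − N was lost without L − N replicate 2 or 3 or H + N replicate 1 or 3 (adjusted p between 0.0508 and 0.0935). RDH10 in L + N was lost without L − N replicate 2 or 3 or any L + N library (0.0914 to 0.124), and in H − N without L − N replicate 2 or 3, L + N replicate 1 or 2, or any H − N library (0.0521 to 0.139). DHRS3 in H + N was lost without L − N replicate 3 (0.0732) or H + N replicate 1 (0.0588), and in H − N without L − N replicate 2 or 3 or H − N replicate 1 or 2 (0.0502 to 0.0923). DHRS3 in L + N passed without L + N replicate 1 (log2 fold change -1.06, adjusted p = 0.0288).

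BCO1 lost its call in 8 of 12 such fits in L + N (0.0507 to 0.142) and in 7 of 12 in H − N (0.0525 to 0.134), L − N replicates 2 and 3 among them in both, and gained one in H + N without L − N replicate 1 (0.0384). RARRES1 was kept in L + N when H + N replicate 2, H − N replicate 3 or L − N replicate 1 was left out, and lost in 9 fits (0.0524 to 0.157). In H + N, RARRES1 was kept without L − N replicate 1 or any H − N library, and lost in 8 fits (0.0542 to 0.117), and in H − N it passed without L − N replicate 1 (0.0230). FABP5 was kept when H + N replicate 3, H − N replicate 2 or L − N replicate 1 was left out, and lost in 9 fits (0.0539 to 0.141).

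Markers of other cell types moved in the same comparisons. Among 6 tested leukocyte markers, edgeR called CD163 lower in L + N, CD163, CD68 and CSF1R lower in H − N, and CD163 and CSF1R lower in H + N, all against L − N. Their sum was 1476 CPM in L − N replicate 2, 1440 CPM in L − N replicate 3 and 340.7 to 661 CPM in the 10 other libraries, L − N replicate 1 included, and none of the 6 genes is at 0. CD163 and CSF1R were the highest of them, reaching 692.3 and 381.2 CPM in L − N. The other markers did not all fall. In the order L + N, H − N and H + N, CD3E had log2 fold changes of -0.16, 0.07 and 0.25. CD79A had 0.00, 0.20 and 0.15, and PTPRC 0.10, -0.70 and -0.16. Of 8 stromal markers, VIM was called lower in H − N and H + N against L − N. THY1 was called lower in H − N. The others were not called and moved both ways. In H − N and H + N, COL1A1 had log2 fold changes of 1.02 and 1.13, and COL1A2 0.46 and 0.63. LUM had -0.02 and 0.29, PDGFRA 0.01 and 0.29, DCN -0.36 and -0.19, and PDGFRB -0.21 and -0.05. The median stromal sum was 20050 CPM for L − N, 22170 for H − N and 27320 for H + N, with overlapping ranges. The gland marker ACP5 was called lower in all 3 comparisons against L − N (1 of 5 gland markers). The endothelial marker PECAM1 was called lower in L + N (1 of 5). The endothelial markers summed to 965.5 to 1319 CPM in L − N and to 630.5 to 1006 CPM elsewhere, while no epithelial or smooth muscle marker was called in these comparisons. The 4 cell division markers summed to 41.6 to 132.5 CPM in L − N and to 140.6 to 359.4 CPM in the other groups. Cell division markers were called higher in L + N and H + N (4 of 4 in each) and in H − N (TOP2A). The part of these lists in the results for RDH10, DHRS3, BCO1, RARRES1 and FABP5 was not tested.

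Of the nuclear receptors, RARA ran from 48.8 to 95.2 CPM, RXRA from 53.3 to 77.2 CPM, RXRB from 43.9 to 57.2 CPM and RARB, itself a well-known target of retinoic acid, from 14.4 to 23.2 CPM. None of these 4 tested receptors was called in any comparison, and the log2 fold change of RARA in H − N against L − N was 0.60 (95% confidence interval 0.16 to 1.03, adjusted p = 0.0996). RXRG did not pass the filter on low counts, and RARG and CYP26C1 were not analysed here. LRAT, which stores retinol as esters (2.38 to 9.66 CPM), was not called in any comparison either.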

How the data were processed

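The authors deposited, for each gene and library, a read count without normalization and an FPKM value, with gene coordinates on Sscrofa11.1. Per the labels, the submitters' processing notes name fastp 0.22.0, HISAT2 2.1.0 and HTSeq 0.9.1, and the strand setting of the counting is not given in the sources used here. The deposited FPKM deviates from count, length and library total by at most 1.91e-05 percent, and 54 genes share a name. Samples were grouped by title.

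Counts were tested with the quasi-likelihood F-test of edgeR 4.0.16 (R 4.3.3, limma 3.58.1) after filterByExpr, which left 15351 genes, and TMM scaling. All 12 libraries entered a single fit, each group with its own mean (biological coefficient of variation 0.269), with Benjamini-Hochberg adjustment over all genes. A gene was called at an adjusted p under 0.05 and an absolute log2 fold change above 1 (for the four-group test, the adjusted p alone). HF against LF and +NCG against −NCG are contrasts of averaged group means, and the interaction is the NCG effect on the HF diet minus that on the LF diet. CPM values use TMM factors, and log2 CPM a prior count of 2. DESeq2 1.42.0 (the tool of the paper), other scaling, filters and fits, and each library left out in turn were alternatives.

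Chi-square per gene between replicates was 23.3 to 99.8, so no libraries of the same group were duplicates. Libraries of different groups were not compared in this way. Named genes are the members, further retinoid genes that were called or fixed by name, and for each called member the 3 most correlated genes of at least 5 CPM. Of the genes fixed by name, 1 is not reported here. Members and lists were chosen with earlier results of these data known.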

Additional observations from a re-analysis of the deposited data

How the results depend on the processing

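The number of called members was 1 for the 4 groups, 0 for L + N against L − N, 0 for H − N against L − N, 1 for H + N against L − N, 0 for HF against LF and 1 for NCG. With DESeq2 these became 4, 3, 2, 4, 1 and 1. The share of all genes called by DESeq2 is not given, so whether these counts exceed it cannot be told. With only the compared groups in the fit, L + N against L − N gave 1 (RBP4) and H + N against L − N gave 0. Leaving out single libraries, the counts ran from 0 to 1 for the 4 groups, from 0 to 3 for L + N, from 0 to 2 for H − N and from 0 to 3 for H + N against L − N, and from 0 to 1 for HF and for NCG. They stayed at 0 for H + N against H − N, for H + N against L + N and for the interaction under each alternative. RLE size factors, a robust fit, no low-count filter and no fold threshold kept each count of members. Deviations of same-numbered libraries correlated at -0.322 to 0.283, and those of differently numbered libraries at -0.323 to 0.284. These ranges show no pairing by number, but with 3 libraries a group they cannot exclude a shared block. With the replicate block, L + N against L − N gave 2 members (CRABP2, adjusted p = 0.0358, and RBP4, 0.0238), and RBP4 took the place of CRABP1 in H + N against L − N (0.0382 against 0.0538) and among the 4 groups. The block turned ALDH1A1 in H + N against L − N to -0.010 and ALDH1A2 in L + N against L − N to 0.0077. Left-out libraries also turned the CRABP1 interaction (-0.045 to 1.64) and RBP4 in H − N against L − N (-1.36 to 0.15). For the same comparisons against L − N, in the order L + N, H − N and H + N, STRA6 ran from -0.67 to 0.83, from -1.47 to 0.031 and from -1.18 to 0.32, ALDH1A1 from -0.28 to 0.90, from -0.15 to 1.02 and from -0.52 to 0.82, and ALDH1A2 from -0.48 to 0.46, from -0.31 to 0.63 and from -0.071 to 0.92. Of 29 other retinoid genes, those called ran from 0 to 3, from 0 to 5 and from 0 to 5. With only the compared groups in the fit they were 1, 0 and 0, and with the block 1, 2 and 2. The cause of these shifts was not tested.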
